A study of Rattus norvegicus with 3 samples.

Results

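Matrix metalloproteinases (MMPs) are zinc-dependent enzymes that cleave the proteins of the extracellular matrix, and 10 genes of the family were followed here: Mmp2, Mmp3, Mmp8, Mmp9, Mmp11, Mmp12, Mmp13, Mmp14, Mmp16 and Mmp19. The genes are taken by symbol and the rule uses no measured value, but the list was drawn up with earlier results of these data known. All 10 are among the 17328 genes counted, which include 11 other MMP genes. The study measured RNA in single nuclei of rat spinal cord, from the lesion epicenter, 49 days after injury. It holds 3 libraries, 1 for each group: an injured cord with no treatment (untreated), an injured cord with an implanted scaffold, and an injured cord with a scaffold releasing HGF (hepatocyte growth factor, a secreted protein that acts through the receptor Met). Both implants had been in place for 7 days, and all 3 groups are WT rats of the SDrat strain, 17 weeks old. No source used here gives the number of rats behind each library, and no group is an uninjured cord. The injury and the time after it are shared by all groups. The untreated cord had no implantation, and no group had the implant surgery without a scaffold. The scaffold and its surgery therefore cannot be told apart in the comparison with untreated cord. The HGF release is compared between the implanted groups, which share the delay before implantation.

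With 1 library per group there is no test of a difference between groups. Each value is therefore given with a 95% interval that covers counting error only, and a gene was counted as higher or lower when its ratio passed 2-fold with at least 20 unique molecular identifiers (UMIs, 1 per captured RNA molecule) in the libraries compared. Levels are given as CPM, the UMIs of a gene as a share of all UMIs of the nuclei considered, scaled to a common total. They are compared within a gene and not between genes.

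After filtering there were 2248 nuclei from untreated cord, 2168 from the scaffold and 906 from the HGF scaffold, with 5947483, 5791715 and 1450757 UMIs and a median of 1408.5, 1639 and 1047 UMIs per nucleus. The HGF scaffold library is the smallest in nuclei and UMIs. At most 3 cell barcodes are shared by any pair of libraries. Some nuclei carried markers (3 or more each) of 5 or more of the 7 lineages examined for mixing: 211 untreated, 252 scaffold and 26 HGF scaffold nuclei, which held 35.5%, 37.5% and 11.8% of the UMIs. These mixed nuclei differ in share between the libraries, and values without them are given beside many of the results below. The rule counts detected markers without regard to depth, so deeper nuclei have more chance of being flagged. Whether the mixed nuclei are doublets was not tested.

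Nuclei were grouped in 21 clusters made without any Mmp or Timp gene, and clusters were named from marker lists. Fibroblast-like nuclei formed a Tnn, Tnc and Postn cluster and a Col8a1, Ebf2 and Fndc1 cluster. Values that follow in threes are in the order untreated, scaffold, HGF scaffold. Macrophage-like nuclei (Msr1, Itgam, Arg1) numbered 17, 376 and 273, or 0.756%, 17.3% and 30.1% of the nuclei. A further cluster led by Lyz2, Spp1 and Ctsz was left unnamed, since 6 macrophage markers and 4 fibroblast markers stood among its leading genes. The rule that leaves it unnamed was set after its values had been seen. It held 31, 81 and 100 nuclei, which is 1.38%, 3.74% and 11% of each library. In it the 12 fibroblast markers summed to 21611, 10637 and 10247 CPM, and the 15 macrophage markers to 9196, 9025 and 11719 CPM. In the Msr1 and Itgam macrophage-like cluster the fibroblast markers summed to 1920, 1159 and 1141 CPM. Mmp13 and Mmp12 were among the 10 leading genes of the Lyz2 and Spp1 cluster, although neither was used to form it. Whether its nuclei are one cell type or carry RNA of several was not tested.

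MMPs are made as inactive proenzymes, opened by other proteases, and held in check by the tissue inhibitors of metalloproteinases (TIMPs). The secreted collagenases Mmp8 and Mmp13 cut fibrillar collagen, the gelatinases Mmp2 and Mmp9 cut denatured collagen and basement membrane, the stromelysin Mmp3 has a broad range of substrates, and Mmp12 is the macrophage elastase. Mmp11 is processed by furin inside the cell, Mmp14 and Mmp16 are anchored in the cell membrane and activate Mmp2, and Mmp19 is a secreted member with a wide tissue distribution. In injured cord, MMPs are known for opening the blood-spinal cord barrier early and for remodelling the scar later.

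Mmp13, Mmp12, Mmp3 and Mmp8 are neighbours in the rat genome, within 1 run of 10 Mmp genes on chromosome 8. RefSeq promoter sequences (build GRCr8) were matched for 5 of the 10 genes: Mmp3, Mmp8, Mmp11, Mmp12 and Mmp13. The 120 bases before the transcription start are shown for the 3 members of the run that were measured in every library, with the AP-1 motif TGANTCA in capitals, because Fos and Jun proteins of the AP-1 family are classical regulators of collagenase and stromelysin genes. The Mmp13 stretch lies at chr8:12782709-12782828, the Mmp12 stretch at chr8:12866532-12866651 and the Mmp3 stretch at chr8:12925161-12925280, all on the plus strand.
Mmp13: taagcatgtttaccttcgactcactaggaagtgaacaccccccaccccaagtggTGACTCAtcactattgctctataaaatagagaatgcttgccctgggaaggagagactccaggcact
Mmp12: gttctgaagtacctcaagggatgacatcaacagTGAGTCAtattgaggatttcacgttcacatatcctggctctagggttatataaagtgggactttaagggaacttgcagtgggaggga
Mmp3: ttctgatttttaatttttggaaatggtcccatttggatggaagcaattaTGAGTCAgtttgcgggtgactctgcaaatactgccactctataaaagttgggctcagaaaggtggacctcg
The motif begins 66 bases before the start in Mmp13, 87 in Mmp12 and 71 in Mmp3, and it reads the same on both strands. It was found in neither the Mmp8 nor the Mmp11 window of 300 bases, and 7.33% of 33469 rat promoter windows of that length hold it. The letters TATAAA, read on both strands, lie between the motif and the start in all 3 stretches shown, and 14.2% of the windows hold them. These matches describe the sequence, and nothing was measured on the binding of a factor there.

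Over all nuclei, the collagenase Mmp13 was higher with the scaffold than in untreated cord and higher again with the HGF scaffold: 27.2 CPM in untreated cord (162 UMIs), 68.4 CPM with the scaffold (396 UMIs) and 156 CPM with the HGF scaffold (226 UMIs). The scaffold to untreated ratio was 2.51 (95% interval 2.09 to 3.03) and the HGF scaffold to scaffold ratio 2.28 (1.93 to 2.69). The second ratio rested in part on 1 nucleus, described further on, and was 1.53 (1.25 to 1.86) when the nucleus with the most Mmp13 UMIs was left out of each library. Without mixed nuclei it was 1.47, also under 2-fold. The other collagenase, Mmp8, gave only 1, 9 and 6 UMIs, too few for a ratio. Neutrophils store Mmp8 as protein in their granules, and the neutrophil-like cluster of 57 scaffold and 15 HGF scaffold nuclei held no Mmp8 UMI. With the libraries pooled, the 95% interval for Mmp8 in that cluster reached 17.8 CPM, so the count does not show that these nuclei lack its RNA.

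The gelatinases went different ways. Mmp9 stood at 6.22, 20.9 and 49.6 CPM (37, 121 and 72 UMIs). Its scaffold to untreated ratio was 3.36 (2.31 to 4.99), and its HGF scaffold to scaffold ratio 2.38 (1.75 to 3.21). Mmp2 stood at 66.6, 45.4 and 55.8 CPM (396, 263 and 81 UMIs), with ratios of 0.682 (0.581 to 0.799) and 1.23 (0.946 to 1.58). Mmp2 was within 2-fold in both comparisons, and its second interval included 1. Its scaffold to untreated ratio without mixed nuclei was 0.563.

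Mmp3, a stromelysin, had 7.06, 19.5 and 42.7 CPM (42, 113 and 62 UMIs), with ratios of 2.76 (1.92 to 4.04) and 2.19 (1.58 to 3.01). Outside the mixed nuclei its scaffold level was 10.2 CPM against 6.26 CPM in untreated cord, a ratio of 1.63, under 2-fold. The HGF scaffold to scaffold ratio of Mmp3 outside the mixed nuclei was 4.43. Mmp11 gave 15, 6 and 2 UMIs. Its scaffold to untreated ratio of 0.411 passed the 2-fold rule, but the interval of 0.131 to 1.12 included 1. The elastase Mmp12 stood at 17.0, 32.8 and 46.9 CPM (101, 190 and 68 UMIs), with ratios of 1.93 (1.51 to 2.48) and 1.43 (1.07 to 1.89).

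The membrane-bound members differed from each other. Mmp14 had 98.4, 136 and 202 CPM (585, 787 and 293 UMIs), with ratios of 1.38 (1.24 to 1.54) and 1.49 (1.30 to 1.70). Mmp16 was highest in untreated cord, at 230 CPM (1367 UMIs), against 118 CPM with the scaffold (686 UMIs) and 113 CPM with the HGF scaffold (164 UMIs). Its scaffold to untreated ratio was 0.515 (0.469 to 0.565) and its HGF scaffold to scaffold ratio 0.954 (0.800 to 1.13), or 0.752 (0.617 to 0.910) without the nucleus richest in Mmp16 in each library. Mmp19 was near the limit of detection, with 17, 19 and 6 UMIs and both intervals including 1.

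**Figure D1:**
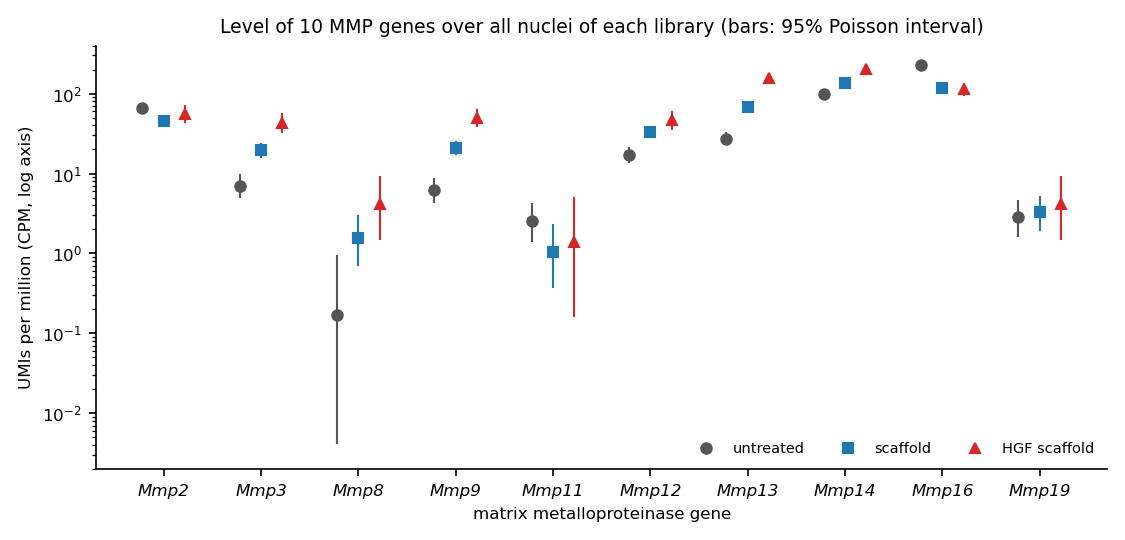
Level of each MMP gene in CPM (log axis) over all nuclei, by library, with bars for the 95% Poisson interval. Mmp3, Mmp9, Mmp12, Mmp13 and Mmp14 stand in the order untreated, scaffold, HGF scaffold, whereas Mmp16 is highest in the untreated library at 230 CPM.

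Counted over the list, 3 of the 9 measured members were past 2-fold higher with the scaffold than in untreated cord (Mmp3, Mmp9 and Mmp13) and 1 was lower (Mmp11), where 7.13% of all 11931 genes measured were higher and 3.97% lower. The median log2 ratio of the 9 members was 0.47, and that of all genes measured 0.04. With HGF release added, 3 of 8 measured members were past 2-fold higher than with the scaffold alone (the same 3 genes) and 0 were lower, where 2.16% of 11331 genes were higher and 5.46% lower. The median log2 ratio of the 8 members was 0.54, against 0.02 over all genes. The comparisons share the scaffold library and are not independent.

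The libraries hold different mixtures of nuclei. When the share of UMIs of each class was held at that of the untreated library, the scaffold to untreated ratio was 3.19 for Mmp13, 2.86 for Mmp3, 2.24 for Mmp9 and 1.54 for Mmp12. When it was held at that of the scaffold library, the HGF scaffold to scaffold ratio was 1.82 for Mmp13, 1.62 for Mmp9, 1.15 for Mmp12 and 1.07 for Mmp3. For Mmp16 it was 1.75, above 1, where the ratio over all nuclei was 0.954. No measured member passed 2-fold in the second comparison on that basis. The values for Mmp13 and Mmp16 there rested in part on single nuclei of the HGF scaffold library. There, 1 endothelial-like nucleus held 82 of 106 Mmp13 UMIs of its class, and 1 neuron-like nucleus 37 of 53 Mmp16 UMIs. Ratios with class shares held were not computed without these nuclei. Leaving out the Lyz2 and Spp1 cluster, the HGF scaffold to scaffold ratio of Mmp3 was 1.06 and that of Mmp9 1.99.

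**Figure D2:**
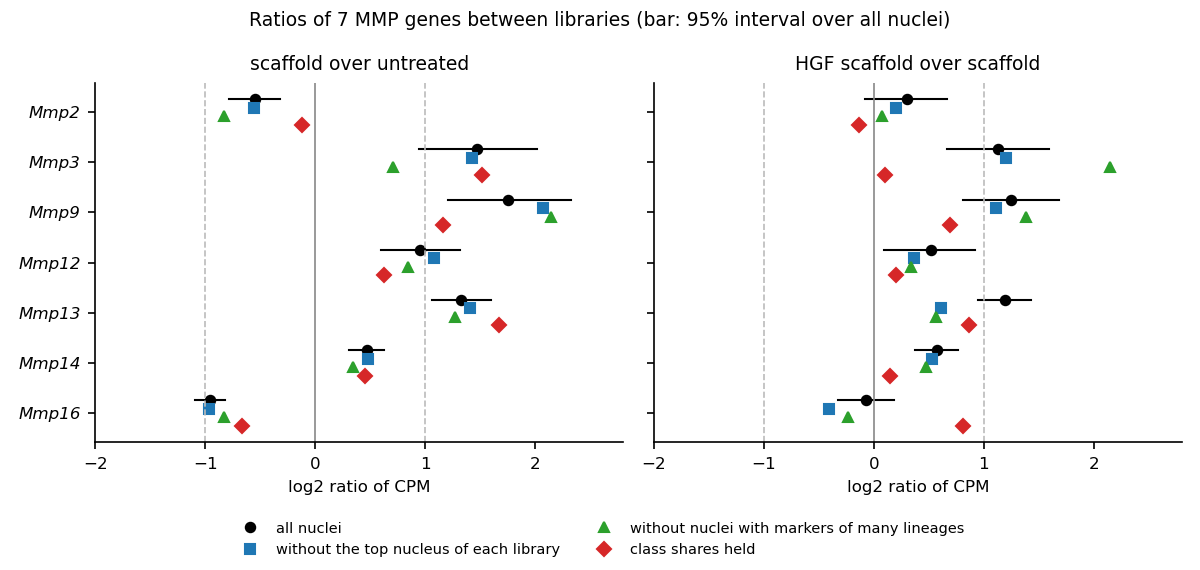
Log2 ratio of CPM between libraries for the 7 members with at least 100 UMIs, over all nuclei (black, with the 95% interval), without the nucleus with the most UMIs of the gene in each library (blue), without mixed nuclei (green) and with class shares held (red). Dashed lines mark 2-fold. Holding class shares leaves Mmp13, Mmp3 and Mmp9 past 2-fold for the scaffold against untreated cord and none past 2-fold for the HGF scaffold against the scaffold.

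Of the 784 Mmp13 UMIs of the 3 libraries, 222 (28.3%) lay in endothelial-like nuclei, 201 (25.6%) in fibroblast-like nuclei and 109 (13.9%) in the Lyz2 and Spp1 cluster. Outside mixed nuclei, 9, 28 and 15 UMIs were left in endothelial-like nuclei and 50, 92 and 29 in fibroblast-like nuclei. Of the endothelial-like UMIs, 82 lay in 1 mixed nucleus of the HGF scaffold library. The level of Mmp13 over all libraries was 93.6 CPM in endothelial-like nuclei, 175 CPM in fibroblast-like nuclei and 407 CPM in the Lyz2 and Spp1 cluster. In the Tnn, Tnc and Postn fibroblast-like cluster, named for genes of matrix proteins, it stood at 182 CPM (139 to 233) in untreated cord, 438 CPM (356 to 532) with the scaffold and 274 CPM with the HGF scaffold. In the Lyz2 and Spp1 cluster it stood at 552, 321 and 441 CPM, on 18, 34 and 57 UMIs. In macrophage-like nuclei it stood at 28.2 CPM with the scaffold and 16.3 CPM with the HGF scaffold. The fibroblast-like class as a whole went from 92.4 CPM in untreated cord to 350 CPM with the scaffold, a ratio of 3.79 (2.76 to 5.24). That ratio was 4.47 (3.14 to 6.45) without mixed nuclei, but 1.22 on 85 UMIs with each library clustered alone. In the Tnn, Tnc and Postn cluster the macrophage markers summed to 979, 3265 and 2790 CPM and the fibroblast markers to 32108, 10716 and 22166 CPM, and the part of this shift in the fibroblast-like MMP levels was not tested.

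Mmp13 was higher with the scaffold than in untreated cord in most classes, including glial and neuronal classes. Of 8 classes in which it was measured, 7 passed 2-fold higher: neuron-like, astrocyte-like, oligodendrocyte-like, OPC-like (oligodendrocyte precursor), endothelial-like, fibroblast-like and meningeal fibroblast-like nuclei, with ratios from 2.14 to 10.1. The highest, in astrocyte-like nuclei, rested on 22 against 2 UMIs with 11 of the 22 in 1 nucleus, and was 2.84 (0.508 to 28.8) without mixed nuclei. The lowest, in endothelial-like nuclei, was 3.38 (1.55 to 8.15) without mixed nuclei, 1.84 without the highest doublet scores and 1.70 without nuclei over 10000 UMIs. Without mixed nuclei the neuron-like ratio was 9.27 (1.24 to 411), on 8 and 1 UMIs, and the OPC-like interval included 1. The exception was the Lyz2 and Spp1 cluster, at 0.581 (0.319 to 1.09). In oligodendrocyte-like nuclei, 2.52%, 7.87% and 6.86% had an Mmp13 UMI (untreated, scaffold, HGF scaffold), at a median of 2602, 2330.5 and 1124 UMIs per nucleus. In fibroblast-like nuclei the shares were 7.29%, 19.6% and 21.7%, at 1224, 1083 and 1055 UMIs. How far free RNA in the droplets sets the level in the glial and neuronal classes was not tested.

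With HGF release, Mmp13 was past 2-fold higher in 2 of 8 classes measured, endothelial-like and oligodendrocyte-like nuclei. The HGF scaffold to scaffold ratio was 0.651 (0.419 to 0.985) in fibroblast-like nuclei, 0.578 (0.194 to 1.44) in macrophage-like nuclei and 1.38 (0.885 to 2.17) in the Lyz2 and Spp1 cluster. In oligodendrocyte-like nuclei it was 2.70 (1.22 to 5.83) on 13 and 18 UMIs, and 1.52 (0.483 to 4.14) without the top nucleus of each library. In endothelial-like nuclei it was 5.33 (3.97 to 7.18). A single nucleus held 82 of the 106 Mmp13 UMIs of that group, and the ratio without the top nucleus of each library was 1.45 (0.874 to 2.32). Without mixed nuclei it was 1.04 (0.515 to 2.01) in endothelial-like and 1.43 (0.454 to 3.90) in oligodendrocyte-like nuclei.

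**Figure D3:**
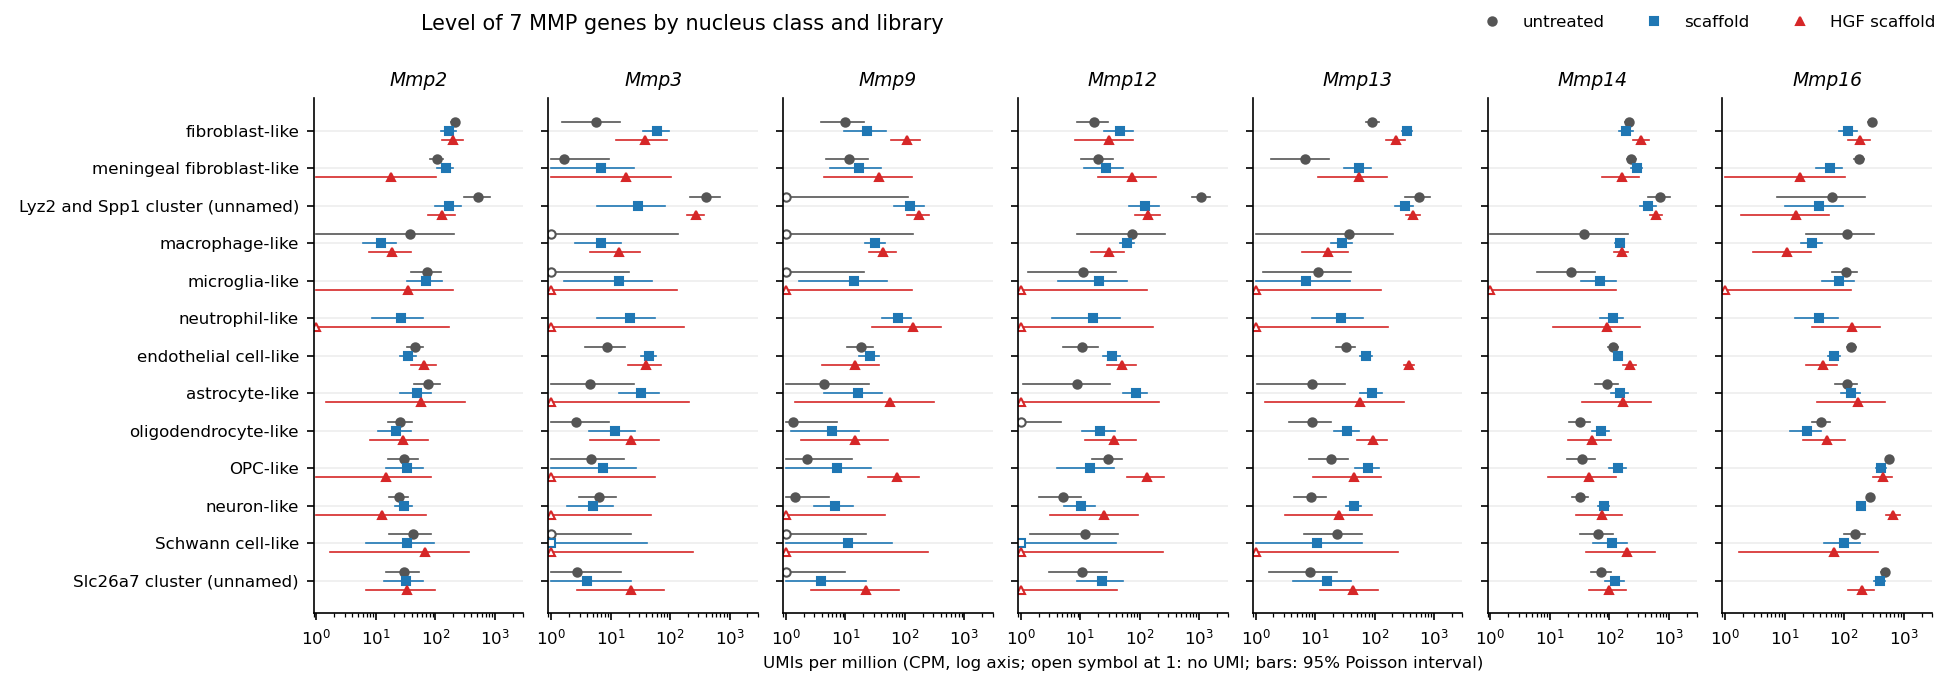
Level of the 7 members with at least 100 UMIs in each class of at least 15 nuclei (rows), in CPM on a log axis, by library (colour and symbol), with 95% Poisson intervals. Open symbols at 1 mark no UMI. Mmp16 reaches high levels in OPC-like, neuron-like and Slc26a7 nuclei and, in the untreated library, fibroblast-like nuclei, while Mmp12, Mmp13 and Mmp14 reach high levels in the Lyz2 and Spp1 cluster.

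Of the 217 Mmp3 UMIs, 71 (32.7%) lay in endothelial-like nuclei, 51 (23.5%) in the Lyz2 and Spp1 cluster and 27 (12.4%) in fibroblast-like nuclei. Mmp3 stood in the Lyz2 and Spp1 cluster at 399 CPM in untreated cord, 28.3 CPM with the scaffold and 271 CPM with the HGF scaffold (13, 3 and 35 UMIs). The HGF scaffold to scaffold ratio there was 9.58 (3.02 to 48.7), and it was 11.3 without the top nucleus of each library. In fibroblast-like nuclei Mmp3 went from 5.60 CPM in untreated cord to 60.1 CPM with the scaffold, a ratio of 10.7 (3.53 to 43.6) on 4 and 18 UMIs, and of 6.08 (1.75 to 26.6) without mixed nuclei. The scaffold library thus had the lowest of the 3 levels in the Lyz2 and Spp1 cluster and the highest in fibroblast-like nuclei.

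In endothelial-like nuclei Mmp3 stood at 8.70, 44.2 and 40.0 CPM. Of the 52 scaffold UMIs, 19 lay in 1 mixed nucleus. Outside mixed nuclei the levels were 2.68, 2.91 and 56.3 CPM on 1, 1 and 10 UMIs, too few for a scaffold to untreated ratio. The HGF scaffold to scaffold ratio was 0.904 (0.425 to 1.75) with the mixed nuclei and 19.4 (2.75 to 840) without them. In the Adgrl4, Emcn and Shank3 endothelial-like cluster, which holds most of these nuclei, macrophage markers summed to 960 CPM in untreated cord, 4161 CPM with the scaffold and 4549 CPM with the HGF scaffold. Fibroblast markers there summed to 5256, 3226 and 5476 CPM, and all 12 were detected in each library. The part of these other lineages in the endothelial-like MMP levels was not tested.

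Of the 101 untreated Mmp12 UMIs, 35 lay in the Lyz2 and Spp1 cluster, and of the 190 scaffold UMIs, 55 lay in macrophage-like nuclei. Its level in the Lyz2 and Spp1 cluster was 1073 CPM in untreated cord, 123 CPM (13 UMIs) with the scaffold and 139 CPM (18 UMIs) with the HGF scaffold. The scaffold to untreated ratio of 0.114 (0.0555 to 0.221) is 8.75-fold lower. In macrophage-like nuclei Mmp12 stood at 62.1 CPM (55 UMIs) with the scaffold and 29.9 CPM (11 UMIs) with the HGF scaffold, a ratio of 0.482 (0.227 to 0.930). Mmp12 in fibroblast-like nuclei was at 16.8, 46.7 and 30.4 CPM, and the scaffold to untreated ratio of 2.78 (1.19 to 6.58) was 6.58 (1.95 to 28.3) without the top nucleus of each library and 8.92 (2.36 to 49.8) without mixed nuclei. The OPC-like level of 134 CPM with the HGF scaffold came from 9 UMIs in 1 nucleus.

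Mmp9 is known as an enzyme of neutrophils and macrophages. Of its 230 UMIs, 51 (22.2%) lay in endothelial-like nuclei, 44 (19.1%) in macrophage-like nuclei, 35 (15.2%) in the Lyz2 and Spp1 cluster and 17 in neutrophil-like nuclei. The endothelial-like levels were 18.5, 25.5 and 14.5 CPM, on 17, 30 and 4 UMIs, and 2.68, 14.6 and 11.3 CPM outside mixed nuclei. Neutrophil-like nuclei, of which the untreated library had none, held it at 75.4 CPM with the scaffold (14 UMIs) and 138 CPM with the HGF scaffold (3 UMIs), with a UMI in 21.1% and 20% of these nuclei. It was at 31.6 and 43.5 CPM in macrophage-like nuclei of the scaffold and HGF scaffold libraries, a ratio of 1.38 (0.696 to 2.63). It stood at 123 and 170 CPM in the Lyz2 and Spp1 cluster, while the 31 untreated nuclei of that cluster held no Mmp9 UMI, which allows up to 92.0 CPM. Without the neutrophil-like nuclei the all-nuclei levels were 6.22, 19.1 and 48.3 CPM. In fibroblast-like nuclei Mmp9 was 4.56-fold higher with the HGF scaffold than with the scaffold (1.72 to 13.3), but 12 of the 14 UMIs lay in 1 nucleus and the ratio without the top nuclei was 0.883 (0.0840 to 5.39). Without mixed nuclei it was 9.57 (2.67 to 51.9).

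Mmp2, the gelatinase activated by Mmp14, stood at 213, 167 and 198 CPM in fibroblast-like nuclei, where the intervals of both ratios included 1 (0.784, with 0.558 to 1.09, and 1.18, with 0.708 to 1.94). In meningeal fibroblast-like nuclei (Ptgds, Slc6a13) it stood at 105 and 149 CPM in the untreated and scaffold libraries and at 18.2 CPM, on 1 UMI, with the HGF scaffold. The Lyz2 and Spp1 cluster had 521, 170 and 132 CPM, a scaffold to untreated ratio of 0.326 (0.158 to 0.673).

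Mmp14, which cleaves collagen at the cell surface and activates Mmp2, was spread over many classes. Its levels in fibroblast-like nuclei were 216, 190 and 342 CPM, and in meningeal fibroblast-like nuclei 234, 287 and 164 CPM. It stood in the Lyz2 and Spp1 cluster at 705, 453 and 612 CPM, and in macrophage-like nuclei at 151 CPM with the scaffold and 160 CPM with the HGF scaffold. Microglia-like nuclei, the resident phagocytes of the cord, had 22.3 and 69.1 CPM in the untreated and scaffold libraries and no UMI in the 35 nuclei of the HGF scaffold library, which allows up to 106 CPM. Against untreated cord, the scaffold library was past 2-fold higher in OPC-like (4.05), neuron-like (2.48) and oligodendrocyte-like (2.23) nuclei. The neuron-like ratio was 9.85 (3.51 to 38.2) without mixed nuclei, on 34 and 4 UMIs. In the same comparison the fibroblast-like ratio was 0.883 (0.640 to 1.20).

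Mmp16 levels were high in OPC-like nuclei (566, 422 and 448 CPM), in an unnamed cluster led by Slc26a7 and Adamtsl3 (477, 394 and 199 CPM), in neuron-like nuclei (276, 191 and 673 CPM) and, in untreated cord, in fibroblast-like nuclei (290 CPM). The share of OPC-like nuclei with an Mmp16 UMI was 53.8%, 44.9% and 36.6%. Its scaffold to untreated ratio was below 1 in 9 of 10 classes, with an interval below 1 in 5, and was past 2-fold in fibroblast-like nuclei (290 against 117 CPM, ratio 0.403, from 0.273 to 0.579) and in meningeal fibroblast-like nuclei (179 against 57.4 CPM, ratio 0.321, from 0.181 to 0.539). The fibroblast-like ratio was no longer past 2-fold without mixed nuclei (0.536), with equal weight per nucleus (0.553), thinned to 500 UMIs (0.639) or without nuclei over 10000 UMIs (0.505). The OPC-like ratio was 0.745 (0.592 to 0.933), and 0.806 (0.621 to 1.04) without mixed nuclei. The endothelial-like ratio was 0.513 (0.382 to 0.685), and 0.982 (0.567 to 1.69) without them. In neuron-like nuclei it was 0.691 (0.584 to 0.817), and 0.813 (0.633 to 1.04) without them. The neuron-like HGF scaffold to scaffold ratio of 3.53 (2.57 to 4.78) rested on 1 nucleus with 37 of 53 UMIs, and was 1.11 (0.624 to 1.85) without the top nuclei.

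Counts were also made within classes. In fibroblast-like nuclei, 3 of 6 measured members were past 2-fold higher with the scaffold than in untreated cord (Mmp3, Mmp12 and Mmp13) and 1 lower (Mmp16), where 7.93% of 7078 genes were higher and 7.71% lower. The median log2 ratio was 0.65 for the 6 members and 0.04 for all genes. In myeloid nuclei (macrophage-like and microglia-like), 0 of 6 measured members were past 2-fold higher with the HGF scaffold than with the scaffold and 2 were lower (Mmp12 at 0.493 and Mmp16 at 0.274), where 2.49% of 7621 genes were higher and 5.56% lower. Of the Mmp16 UMIs, macrophage-like nuclei held 4 in the HGF scaffold library and 26 in the scaffold library. The median log2 ratio was -0.37 for the 6 members and -0.02 for all genes. Had the Lyz2 and Spp1 cluster been counted as macrophage-like, 2 of 7 members would have been higher, with Mmp13 at 2.27, and 1 lower.

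In the other classes with a member past 2-fold, the scaffold against untreated cord gave 3 of 7 measured members higher and 0 lower in endothelial-like nuclei (Mmp3, Mmp12 and Mmp13), where 9.4% of genes were higher and 4.56% lower. It gave 2 of 4 higher (Mmp13 and Mmp14) and 0 lower in OPC-like, neuron-like and oligodendrocyte-like nuclei, where 10.9%, 8.97% and 10.2% of genes were higher and 3.75%, 2.09% and 2.06% lower. In astrocyte-like nuclei 2 of 5 were higher (Mmp12 and Mmp13) and 0 lower, against 6.3% and 3.86% of genes. In meningeal fibroblast-like nuclei 1 of 5 was higher (Mmp13) and 1 lower (Mmp16), against 5.8% and 3.8%. The Lyz2 and Spp1 cluster went the other way, with 0 of 4 higher and 2 lower (Mmp2 and Mmp12), where 16.1% of genes were higher and 7.73% lower.

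For the HGF scaffold against the scaffold, the counts per class were small. In fibroblast-like nuclei 1 of 6 was higher (Mmp9) and 0 lower, where 4.63% of genes were higher and 8.78% lower. In endothelial-like nuclei 1 of 7 was higher (Mmp13) and 0 lower, against 3.06% and 8.05% of genes, and in the Lyz2 and Spp1 cluster 1 of 6 was higher (Mmp3) and 0 lower, against 4.8% and 4.45%. Macrophage-like nuclei alone had 0 of 5 higher and 2 lower (Mmp12 and Mmp16), against 2.93% and 5.21%. The Mmp16 ratio there was 0.371 on 4 and 26 UMIs, and its interval of 0.0940 to 1.07 included 1. Neuron-like nuclei had 1 of 4 higher (Mmp16) and 1 lower (Mmp2, on 1 UMI), against 10% and 11.5%, and oligodendrocyte-like nuclei 1 of 2 higher (Mmp13) and 0 lower, against 3.03% and 8.93%. A lower member was counted in OPC-like nuclei (Mmp14, on 3 UMIs, 1 of 3 with 0 higher, against 13.9% of genes lower and 4.82% higher) and in meningeal fibroblast-like nuclei (Mmp2, on 1 UMI, 1 of 2 with 0 higher, against 12.1% and 4.64%).

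A member's UMIs were often gathered in few nuclei. Of 5322 nuclei, 2922 had no UMI of any member, 1657 had UMIs of 1 member, 489 of 2, 174 of 3, 58 of 4 and 22 of at least 5, and the median depth went from 1093 UMIs in the first group to 16117.5 in the last. In the HGF scaffold library 1 nucleus of the Adgrl4 endothelial-like cluster, with 16000 UMIs, held 82 of 226 Mmp13 UMIs (36.3%), together with 13 UMIs of Mmp14, 8 of Mmp2 and 3 of Mmp12. That nucleus had UMIs of 9 of 12 fibroblast markers (294 UMIs) and of 13 of 15 endothelial markers (111 UMIs). In the untreated library 10 of 37 Mmp9 UMIs lay in 1 mixed endothelial-like nucleus, and without the top nuclei the scaffold to untreated ratio of Mmp9 was 4.20 (2.74 to 6.65).

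**Figure D4:**
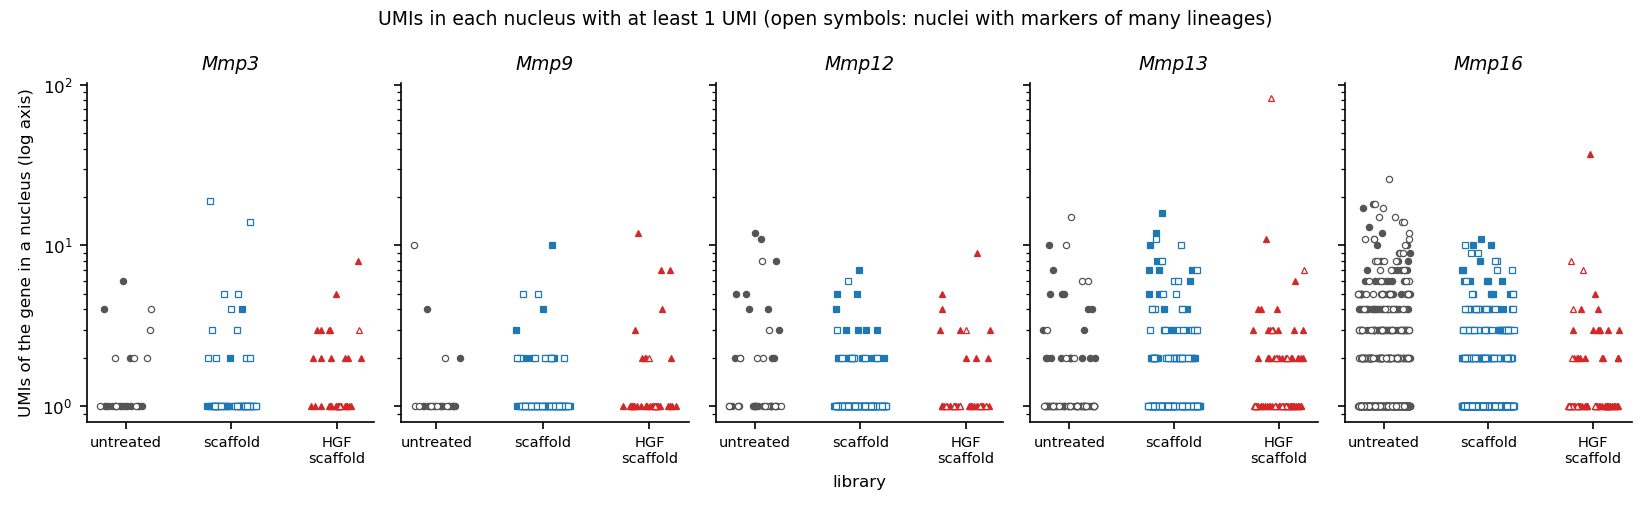
UMIs of Mmp3, Mmp9, Mmp12, Mmp13 and Mmp16 (log axis) in every nucleus with at least 1, by library, with open symbols for mixed nuclei and horizontal scatter added for sight only. One mixed nucleus with 82 Mmp13 UMIs and one neuron-like nucleus with 37 Mmp16 UMIs stand apart in the HGF scaffold library.

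Within single nuclei, Mmp3 and Mmp13 were often seen together. Mmp13 was present, within the Lyz2 and Spp1 cluster, in 13 of 21 nuclei with an Mmp3 UMI (61.9%) and in 22% of those without one, at a median depth of 1284 and 867 UMIs. In the Tnn, Tnc and Postn cluster the counts were 9 of 16 (56.2%) and 17.6%, at 1412 and 1298 UMIs. In the Lyz2 and Spp1 cluster, 0 of 19 nuclei with Mmp9 held Mmp12 and 13.0% of the others did, so few of 19 would hold both at that share. The untreated nuclei of that cluster held 35 of its 66 Mmp12 UMIs and no Mmp9 UMI. All these shares of nuclei pool the libraries, and the deeper nuclei have more chance of holding any 2 genes.

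Across 36 sums of class and library, the genes most like Mmp2 by Pearson correlation of log2(CPM + 10) were Lum (r = 0.84), Col1a2 (0.84) and Col1a1 (0.81), which encode matrix proteins. Those most like Mmp13 were Postn (0.75), Mmp3 (0.73) and Igfbp4 (0.72), and the gene most like Mmp3 among 9736 was Mmp13. Mmp12 was most like Cebpa (0.81), a myeloid transcription factor, Csk (0.77) and Ctsk (0.73), a collagen-cleaving cathepsin. Mmp9 was most like Ehd1 (0.71), Slc11a1 (0.70), a transporter of phagocytes, and Rgs14 (0.69). Mmp14 was most like Rps9 (0.89), Lmna (0.89) and Rpl37 (0.84), and Mmp16 most like Kcnq5 (0.83), Meis2 (0.80) and Ntrk3 (0.79), which are known from neurons. The sums share libraries and depth, so these values only describe them.

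Genes that work on MMPs were read from 7 lists, over all nuclei. The ratios of the listed genes were not computed with class shares held. Macrophage-like nuclei were 0.756%, 17.3% and 30.1% of the libraries, and fibroblast-like nuclei 14.6%, 7.06% and 7.62% (untreated, scaffold, HGF scaffold). How far this mixture of nuclei sets the ratios of the listed genes was not tested. Of the 6 inhibitors, none passed 2-fold in either comparison, and their median log2 ratio was -0.47 for the scaffold against untreated cord and -0.14 for the HGF scaffold against the scaffold. Timp2, which also takes part in the activation of Mmp2 by Mmp14, stood at 273, 334 and 347 CPM. Timp3, bound to the matrix, stood at 237, 188 and 142 CPM. Timp1, an inhibitor of most secreted MMPs, had 76.8, 55.3 and 68.9 CPM, and A2m, a protease trap, had 100.2, 71.3 and 40.0 CPM. No inhibitor moved past 2-fold with Mmp3, Mmp9 and Mmp13 in either comparison.

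Among the proenzyme activators, 2 of 7 measured genes were past 2-fold higher with the scaffold and 0 lower, against 7.13% and 3.97% of all genes. Plau, the urokinase that generates plasmin, went from 4.37 to 28.7 CPM, a ratio of 6.56 (4.32 to 10.3). Its receptor Plaur went from 54.5 to 261 CPM, a ratio of 4.79 (4.24 to 5.41). In the HGF scaffold library they stood at 30.3 and 256 CPM, so neither differed past 2-fold from the scaffold. Pcsk5, a proprotein convertase with many UMIs, had a scaffold to untreated ratio of 0.780.

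Of the 11 measured genes for binding and clearance of MMPs, 2 were higher with the scaffold, against 7.13% of all genes: Cd44, a docking site for Mmp9 at the cell surface, at 3.35 (3.07 to 3.67), and Lcn2, which forms a complex with Mmp9, at 4.01 (2.49 to 6.74). Lrp1, the endocytic receptor that clears several MMPs, was within 2-fold at 1.27. Spock2, a proteoglycan, was lower with the HGF scaffold than with the scaffold at 0.383 (0.193 to 0.694), on 12 and 125 UMIs, the 1 gene of 11 that was lower there, against 5.46% of all genes.

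Of the 7 AP-1 subunits, 3 were past 2-fold higher with the scaffold than in untreated cord and 0 lower, against 7.13% and 3.97% of all genes, and none passed 2-fold with HGF release added. Junb had a ratio of 4.93 (4.23 to 5.76), Fosl2 2.26 (2.02 to 2.54) and Fos 2.12 (1.70 to 2.66), whereas Jun stood at 0.978 and Fosl1 at 0.733. The median log2 ratio of the list was 0.69.

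Other proteases of the matrix were read for contrast. Of 5 measured other MMPs (Mmp15, Mmp17, Mmp23, Mmp24 and Mmp28), 0 were past 2-fold in either direction with the scaffold, and Mmp17 and Mmp28 were lower with the HGF scaffold on 3 and 4 UMIs, where 5.46% of all genes were lower. Of 5 ADAM sheddases, 0 passed 2-fold in either comparison, with Adam10 at 1.02 and Adam17, which releases tumour necrosis factor, at 1.59 for the scaffold against untreated cord. Of 13 ADAMTS proteases, Adamts12 was lower with the scaffold at 0.496 (0.462 to 0.532) and none was higher, against 3.97% and 7.13% of all genes, with Adamts2, the procollagen peptidase, at 0.543. Adamts19 and Adamts7 were lower with the HGF scaffold than with the scaffold, on 4 and 3 UMIs, against the same 5.46%.

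**Figure D5:**
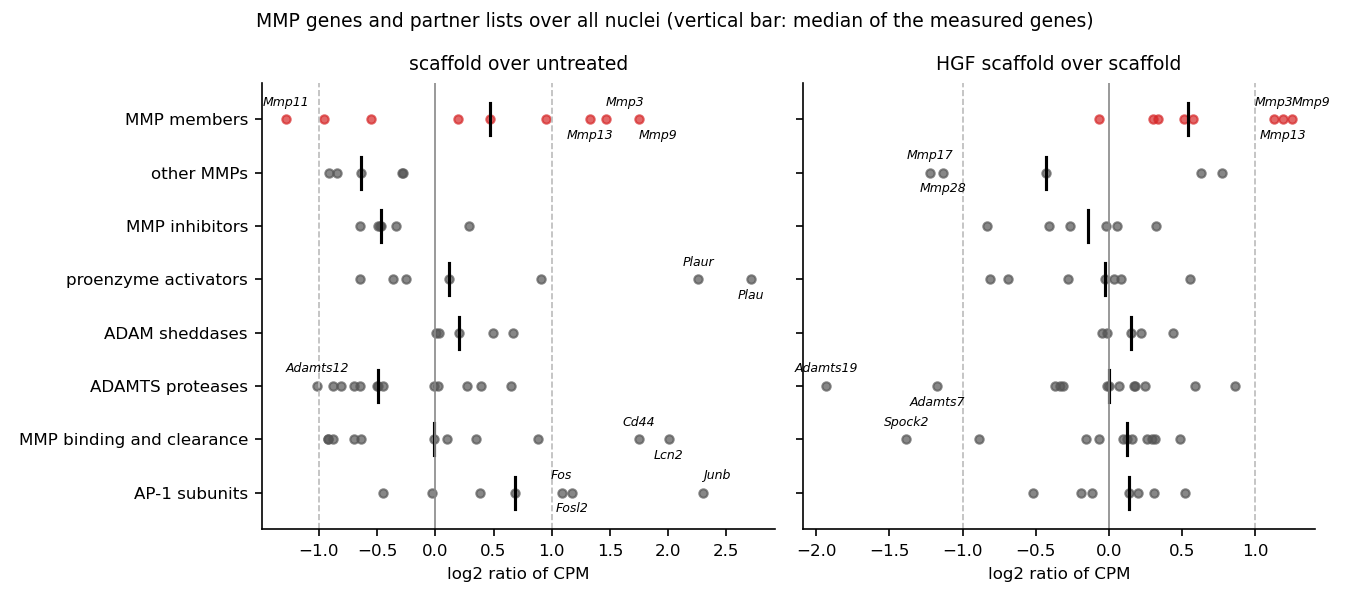
Log2 ratio of CPM over all nuclei for each measured MMP member and partner gene (points) by list, with the list median as a vertical bar, 2-fold as dashed lines and the genes past 2-fold named. The inhibitors all lie within 2-fold in both comparisons, and Plau, Plaur, Cd44, Lcn2 and Junb are past 2-fold higher for the scaffold against untreated cord.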

How the data were processed

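The deposited values are whole-number UMI counts per gene and nucleus, and the submitters' processing notes name Cell Ranger 6.0.1 as the authors' tool. The genome build, annotation and cell calling are not given in the sources used here. Of 5326 deposited barcodes, 5322 had at least 200 genes and at most 5% mitochondrial UMIs. Scrublet called 2 of them, too few to be of use, so no doublet was removed by it.

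Nuclei were clustered with scanpy 1.11.5 (2000 variable genes without any Mmp or Timp gene, 30 components, 15 neighbours, Leiden resolution 1). A cluster was named when at least 3 markers of 1 list were among its 100 leading genes. It stayed unnamed on a tie, or where another list had more than 0.5 times as many markers; this last condition was added after the values had been seen. UMIs were summed per class and library. Levels carry exact Poisson intervals, ratios exact conditional Clopper-Pearson intervals and shares exact binomial intervals, at 95%; a gene with no UMI was set at 3 counts. Ratios needed at least 20 nuclei in both libraries. Likeness was the correlation over sums of at least 20 nuclei, for members with at least 100 UMIs. Ratio calls were tried on simulated Poisson counts, with changes larger than 2-fold planted in genes with at least 50 UMIs. That setting does not cover changes near 2-fold, genes near 20 UMIs or UMIs gathered in few nuclei. All 10 members and the partner and marker lists were chosen with earlier results of these data known. Partner genes were named for having the most UMIs of their list or its largest changes. UMI counts were not corrected for free RNA. The alternatives covered filters, mixed nuclei, depth, clustering, naming and the fold and UMI thresholds.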

Additional observations from a re-analysis of the deposited data

Results flagged for a closer look

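Mmp12 differed in direction between classes for the scaffold against untreated cord. In the Lyz2 and Spp1 cluster its ratio was 0.114 (0.0555 to 0.221), on 13 scaffold and 35 untreated UMIs. It was past 2-fold higher in astrocyte-like nuclei at 9.63 (2.36 to 84.8), on 21 and 2 UMIs, a difference of 6.40 on the log2 scale from that cluster, and at 5.21 (1.14 to 48.4) without mixed nuclei. In endothelial-like nuclei the ratio was 3.13 (1.54 to 7.01), on 40 and 10 UMIs, and the difference was 4.77. Without mixed nuclei the endothelial-like ratio was 2.61 (0.855 to 9.45), on 12 and 5 UMIs, and its interval included 1. It was 1.47, under 2-fold, with equal weight per nucleus, and 3.62 without the top nucleus of each library. In fibroblast-like nuclei the ratio was 2.78 (1.19 to 6.58), on 14 and 12 UMIs, and the difference was 4.61. These differences were not tested, because each group is 1 library.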

How the results depend on the processing

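Alternatives were run for 43 single ratios. They covered all nuclei and endothelial-like nuclei in both comparisons. Fibroblast-like nuclei were covered for the scaffold against untreated cord, and myeloid nuclei for the HGF scaffold against the scaffold. Ratios in the other classes were not among them. Of 551 alternative values, 445 stayed within their counting interval, 105 moved outside it and 1 was counted as reversed. A reversal was counted only where the main ratio was past 2-fold, so smaller ratios that crossed 1 are not in it. In the alternatives 34 values left 2-fold and 44 entered it, with no minimum of 20 UMIs applied there. The cause of these moves was not tested. The reversed value was the HGF scaffold against scaffold ratio of Mmp12 in myeloid nuclei, 0.45 on the log2 scale with classes from a marker score. For the scaffold against untreated cord over all nuclei, 3 members were higher, and 1 at a 3-fold threshold. The count was 2 without mixed nuclei, with equal weight per nucleus and without nuclei over 10000 UMIs, where Mmp3 was at 1.63, 1.97 and 1.88. It was 4 with at least 500 genes, without the highest Scrublet scores, thinned, without top nuclei and without the Lyz2 and Spp1 cluster, where Mmp12 entered at 2.04 to 2.79, and also at 1.5-fold and with at least 10 UMIs. The lower count of 1 (Mmp11) became 0 without mixed nuclei, without the highest Scrublet scores, thinned to 500 UMIs, without top nuclei, without nuclei over 10000 UMIs, at 3-fold or with at least 50 UMIs, and 2 at 1.5-fold. Without top nuclei the Mmp11 ratio was 0.367, still past 2-fold, but its 5 scaffold and 14 untreated UMIs fell under the minimum of 20. For the HGF scaffold against the scaffold, the higher count of 3 became 1 when thinned or without the Lyz2 and Spp1 cluster, and 0 with class shares held or at 3-fold. It was 2 without mixed nuclei, with equal weight, without top nuclei and without nuclei over 10000 UMIs, where Mmp13 was at 1.47 to 1.53, and 4 with at least 10 UMIs. The lower count of 0 became 1 with equal weight per nucleus. In fibroblast-like nuclei the higher count of 3 became 1 without mixed nuclei, thinned, without top nuclei, at Leiden resolution 2 or with at least 50 UMIs, and 0 with each library clustered alone. Without mixed nuclei, Mmp3 was at 6.08 (10 scaffold and 4 untreated UMIs) and Mmp12 at 8.92 (11 and 3 UMIs). Without top nuclei they were at 11.1 (13 and 3 UMIs) and 6.58 (11 and 4 UMIs). These ratios stayed past 2-fold, and both genes left the count for having fewer than 20 UMIs. The lower count of 1 in fibroblast-like nuclei became 0 without mixed nuclei, with equal weight, thinned, without nuclei over 10000 UMIs or at 3-fold, and 2 at Leiden resolution 2 or by marker score. In myeloid nuclei the higher count of 0 became 1 at Leiden resolution 0.5 and 2, and 2 with the Lyz2 and Spp1 cluster counted as macrophage-like. The lower count of 2 became 1 with at least 500 genes, without nuclei over 10000 UMIs, at Leiden resolution 2, with libraries clustered alone, by marker score, after centring, at 3-fold, with at least 50 UMIs or with that cluster counted, and 0 when thinned or at Leiden resolution 0.5. The named class with the highest level was the same for 4 of 7 members at Leiden resolutions 0.5 and 2. The alternatives on class shares and on the Lyz2 and Spp1 cluster were chosen after seeing the data. Fewer UMIs in the HGF scaffold library limit its ratios. No paired analysis was possible because each group has 1 library.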
